A study of Mus musculus with 2 samples.

Results

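The SLC25 genes encode the mitochondrial carriers, and 45 of the 21938 protein-coding genes of the GENCODE M21 annotation (mouse build mm10) belong to the set described here. They were taken by symbol, Slc25a followed by a number, with Slc25a37 and Slc25a38 left out. No measured value entered this rule, but earlier results of these data were known when the set was chosen. Chromatin accessibility at these genes was measured by ATAC-seq, which uses a transposase to tag accessible DNA with adapters for sequencing. The cells were G1E, a mouse erythroid progenitor line that carries no working Gata1, the gene of a transcription factor needed for red cell maturation. The labels give the strain as C57BL/6J and the sex as male, and both libraries come from this single line. The series held 1 group, untreated as far as the labels say, with 2 biological replicates of 50000 cells each, so there was no comparison between conditions. Values of the SLC25 genes are therefore set beside those of all protein-coding genes.

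SLC25 carriers are encoded in the nucleus, made in the cytosol and inserted into the inner mitochondrial membrane, where each exchanges or takes up a defined group of solutes. They move adenine nucleotides, phosphate, carboxylates, amino acids and cofactors between the cytosol and the matrix. In erythroid cells the early and late steps of heme synthesis take place inside mitochondria, so that substrates, iron and intermediates have to cross this membrane. A few members sit elsewhere, among them the peroxisomal carrier Slc25a17 and the outer membrane protein Slc25a46.

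The data were the authors' lists of peaks in each replicate, and overlapping peaks were joined into 21194 regions in replicate 1 and 22620 in replicate 2. A gene was counted as having a promoter region where a region lay within 1 kb of any of its annotated start sites. Peak lists hold no read totals, so the depth is unknown and a promoter with no listed region cannot be read as closed. Each region carries a signal value from the authors' peak caller, which is not scaled between the libraries. It is given here beside its percentile, the rank of the region within its own replicate's list. Nothing in the labels says that the replicates came from separate cultures. The labelled cell type was checked by promoter regions: 7 of 7 erythroid progenitor markers (Klf1, Tal1, Gfi1b, Epor, Kit, Lmo2 and Nfe2) had one in both replicates. The share of all protein-coding genes with one in both was 39.1%. The markers of other lineages Mpo, Elane, Csf1r, Cd3e, Alb, Camk2a, Nanog and Col1a2 had none in either. Megakaryocytes and mast cells were not among the other lineages checked.

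Most SLC25 genes had an accessible promoter. In replicate 1, 32 of the 45 genes (71.1%) had a promoter region, against 40.5% of all protein-coding genes. In replicate 2 it was 34 genes (75.6%), against 42.1% of all. The mean share was 73.3% ± 3.14 for SLC25 genes and 41.3% ± 1.14 for all genes (SD, n = 2 replicates). In both replicates 31 genes (68.9%) had one, against 39.1% of all genes, and all 31 had at least 1 region that overlapped between the replicates. The spread between the replicates does not show how far a set of this size could stray from all genes. The difference was not tested, because the set was chosen with results of these data known.

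The 31 genes shared 35 distinct promoter regions between the replicates. Their summits, the points of strongest signal, lay upstream of the nearest start site in 30 of 35 regions, at a median of -83 bp, and 26 of 35 lay within 200 bp of it. The same was not computed over all promoter regions, so these places cannot be called particular to SLC25 genes. Sequence around 6 of these summits is printed here, from the GRCm38.p6 (mm10) genome of RefSeq and on the strand of the gene, because it shows SP1, NFY and ETS matches at the Slc25a3 and Slc25a29 promoters and all 4 matches to the CRE. In the first pair, capitals mark matches on either strand to an ETS motif (CCGGAAG), an NFY motif (CCAAT) or an SP1 motif (GGGCGG). The Slc25a3 sequence (chr10:91124006-91124165, minus strand) surrounds the summit of the strongest SLC25 promoter region and includes the start site. The Slc25a29 sequence (chr12:108835844-108836043, minus strand) surrounds the summit of a region that lies between Slc25a29 and the divergent Slc25a47. In the CRE windows that follow, capitals mark the full cyclic AMP response element, or CRE (TGACGTCA). They span 60 bases each, at Slc25a25 (chr2:32424183-32424242, minus strand), Slc25a26 (chr6:94500269-94500328, plus strand), Slc25a36 (chr9:97111169-97111228, minus strand) and Slc25a39 (chr11:102408488-102408547, minus strand). The Slc25a26 and Slc25a39 windows were chosen after their values were seen.
Slc25a3 promoter: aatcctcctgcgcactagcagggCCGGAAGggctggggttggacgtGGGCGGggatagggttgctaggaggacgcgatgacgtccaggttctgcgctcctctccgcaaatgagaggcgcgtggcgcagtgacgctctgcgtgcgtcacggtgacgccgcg
Slc25a29 and Slc25a47 promoter: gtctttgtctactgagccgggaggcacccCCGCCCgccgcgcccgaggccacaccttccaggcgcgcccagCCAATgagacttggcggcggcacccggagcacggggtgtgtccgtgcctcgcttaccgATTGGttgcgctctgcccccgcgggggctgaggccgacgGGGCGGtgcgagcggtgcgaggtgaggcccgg
Slc25a25: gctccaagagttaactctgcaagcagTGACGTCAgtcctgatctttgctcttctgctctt
Slc25a26: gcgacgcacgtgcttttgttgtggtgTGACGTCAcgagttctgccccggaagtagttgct
Slc25a36: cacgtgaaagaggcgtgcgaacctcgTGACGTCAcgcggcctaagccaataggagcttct
Slc25a39: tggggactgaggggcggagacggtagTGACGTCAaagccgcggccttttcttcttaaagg

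The palindromic CRE was found within 200 bases around the summit in 4 of the 35 SLC25 promoter regions (11.4%), against 3.56% of all 8538 promoter regions shared by the replicates. With a window of 100 bases, or with the summits of replicate 1, it was in 3 of 35 (8.57%), against 2.44% and 3.47% of all. The CRE was 1 of 15 motifs searched, these counts are small, and the difference was not tested. The Slc25a25 region with the CRE lies at an internal start site, 27.3 kb inside the gene, and not at its outermost 5′ end. In the Slc25a39 region the summit lay -646 bp from the nearest start site.

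Accessibility differed widely among the 31 genes with a promoter region in both replicates. Their percentiles ran between 43.2 and 99.1 in replicate 1, with a median of 76.6, against a median of 71.3 over all 8571 genes with one in both. In replicate 2 they ran between 34.6 and 98.3, with a median of 79.9, against 74.2. At or above the 90th percentile were 5 of 31 SLC25 genes (16.1%), against 20.7% of all genes, in replicate 1. In replicate 2 it was 10 of 31 (32.3%), against 22.3%, so that the replicates differed in which side of the share of all genes the SLC25 genes fell. Widths were close to those of all genes, with medians of 506 bp and 495 bp in replicate 1 and 514 bp and 519 bp in replicate 2. The order of the SLC25 genes was much the same in both replicates, with a Spearman correlation of 0.887 across the 31 genes, against 0.855 across all 8571; both share the same libraries. The percentile of a gene differed between replicates by a median of 6.32 among SLC25 genes, against 7.23 among all genes, so neighbouring ranks were not separated.

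**Figure D1:**
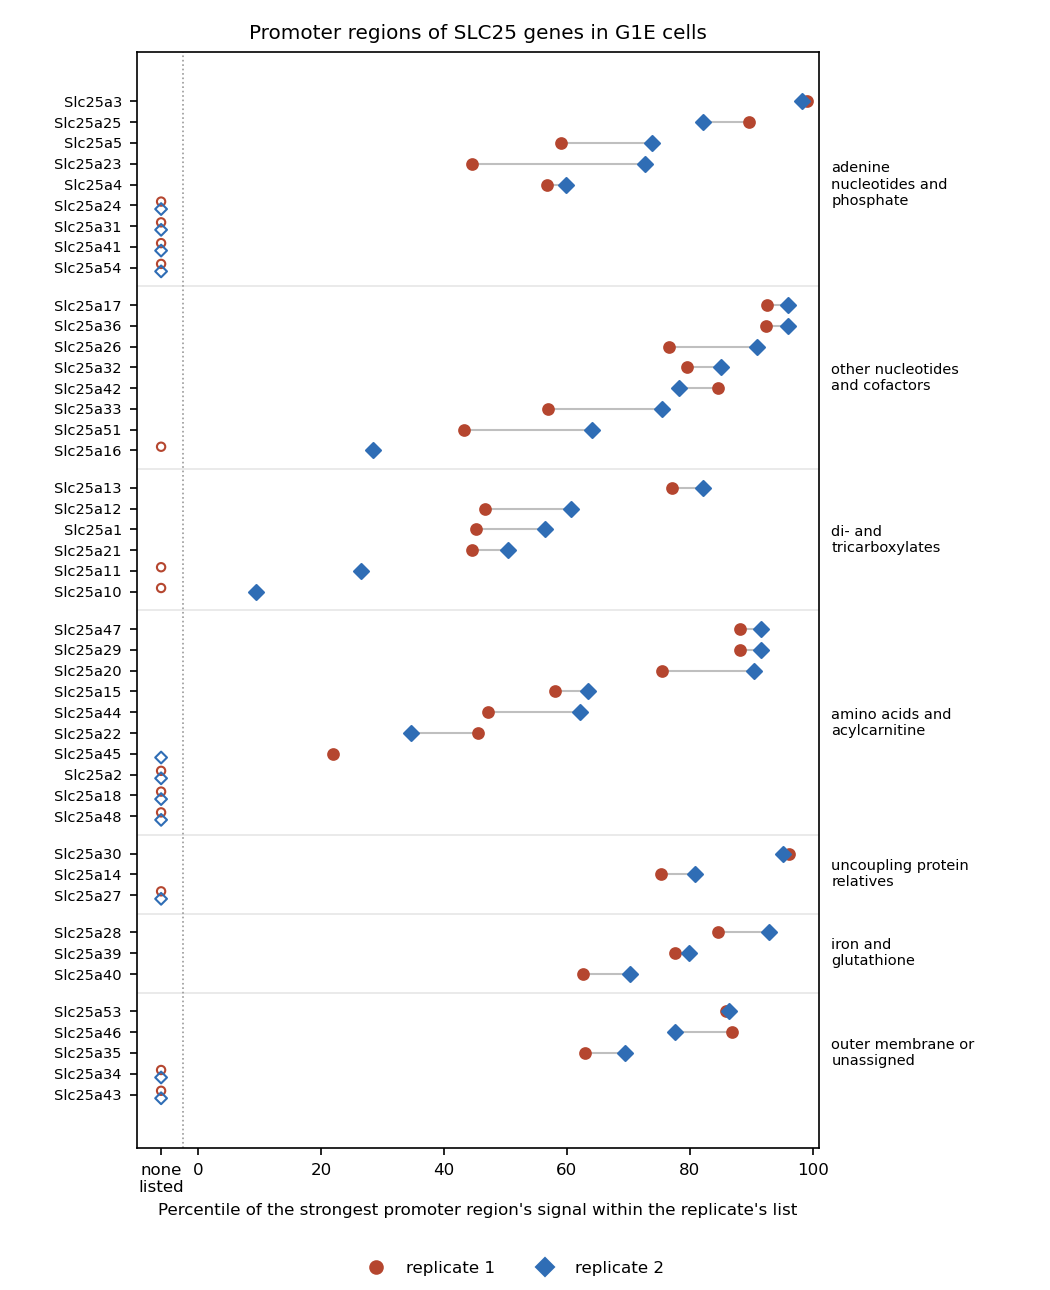
Percentile of signal of the strongest promoter region of SLC25 genes within the list of replicate 1 (circles) and replicate 2 (diamonds), grouped by the substrates of the carriers; grey lines join the replicates, and open symbols at the left mark a replicate with no promoter region. Slc25a3 stands at the top of the scale in both replicates, and 10 genes had no region in either.

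The counts by substrate group that follow stand beside the 39.1% of all genes with a promoter region in both replicates. The groups are small, and no difference between them was tested. Of the carriers of adenine nucleotides and phosphate, 5 of 9 genes were listed in both replicates and the other 4 in neither. Slc25a3, the phosphate carrier that supplies ATP synthase, had the strongest promoter of the family, with signal values of 18.7 in replicate 1 and 19.4 in replicate 2 (percentiles 99.1 and 98.3; chr10:91123879-91124332). Its summit lay -27 bp from the start site. The adenine nucleotide translocases Slc25a4 and Slc25a5, which exchange ADP for ATP, lay lower on the scale. Slc25a4 had signals of 8.8 and 10 (percentiles 56.7 and 59.8), and Slc25a5 had 9.07 and 12 (percentiles 59 and 73.9). The testis translocase Slc25a31 had no promoter region in either replicate. Among the ATP-Mg/phosphate carriers, which are mostly regulated by calcium, Slc25a25 had signals of 13.9 and 13.5 at its strongest region. That gene had 3 promoter regions in both replicates: the strongest, with its summit -611 bp from a start site, a weaker one beside the opposite gene Naif1 (6.83 and 7.26), and the internal one (11.8 and 10.7). Slc25a23 had 7.63 in replicate 1 and 11.8 in replicate 2, a gap of 28.2 percentile points that exceeded those of the other 30 genes. Its paralogs Slc25a24, Slc25a41 and Slc25a54 had no listed promoter region.

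Among carriers of other nucleotides and cofactors, 8 of 9 genes (88.9%) were listed in both replicates, and all 9 in replicate 2. Slc25a17, the peroxisomal carrier of coenzyme A, FAD and NAD, had signals of 14.8 and 17.7 (percentiles 92.6 and 96; chr15:81360673-81361214). Slc25a36, a pyrimidine nucleotide carrier, had 14.7 and 17.7 (percentiles 92.3 and 96; chr9:97110886-97111467). Like Slc25a3, both stood above the 90th percentile in both replicates. Lower in the order were Slc25a26 for S-adenosylmethionine (11.4 and 15.6), Slc25a32 for folate and flavin (11.8 and 14.1) and Slc25a42 for coenzyme A (12.8 and 12.7). Slc25a33, the second pyrimidine nucleotide carrier, had 8.84 and 12.3, and the NAD carrier Slc25a51 had 7.49 and 10.5. Slc25a16, which is linked to coenzyme A supply, was listed in replicate 2 alone, with a signal of 6.91 at percentile 28.5.

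Of the carriers of di- and tricarboxylates, 4 of 6 genes were listed in both replicates, and apart from Slc25a13 their mean percentiles lay between 47.4 and 53.6. Slc25a13 and Slc25a12 are the aspartate-glutamate carriers of the malate-aspartate shuttle. Slc25a13 had signals of 11.5 and 13.5, and Slc25a12 had 7.83 and 10.1. Slc25a1, the citrate carrier, had 7.69 and 9.63 at a region whose summit lay -622 bp from the start site, and a region closer to that start site was listed in replicate 2 alone (6.31). Slc25a21, the oxoadipate carrier, had 7.64 and 8.94. Slc25a11, which exchanges oxoglutarate for malate and so is the partner of the aspartate-glutamate carriers in the shuttle, was listed in replicate 2 alone with 6.77 (percentile 26.5), in a region shared with the opposite gene Rnf167. In the authors' lenient list of replicate 1 it had 4.53. The dicarboxylate carrier Slc25a10 was listed in replicate 2 alone with 5.28 (percentile 9.5). The 4 enzymes of the same shuttle, Got1, Got2, Mdh1 and Mdh2, had a promoter region in both replicates.

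Among carriers of amino acids and acylcarnitine, with relatives placed by sequence, 6 of 10 genes were listed in both replicates. Slc25a29, which carries basic amino acids, and its relative Slc25a47 start on opposite strands of the same region (chr12:108835639-108836546). Its signals of 13.6 and 15.8 (percentiles 88.1 and 91.5) therefore count for both genes and cannot be told apart between them. The summit lay -61 bp from the Slc25a29 start and -102 bp from the Slc25a47 start. The carnitine-acylcarnitine carrier Slc25a20 had 11.1 and 15.5, the ornithine carrier Slc25a15 had 8.96 and 10.5, and the branched-chain amino acid carrier Slc25a44 had 7.88 and 10.3. The glutamate carrier Slc25a22 had the lowest mean percentile of the 31 genes, 40.1, with 7.73 and 7.46 at a start site 2.54 kb inside the gene. Another region of Slc25a22, with its summit at a start site 246 bp inside the outermost 5′ end, was listed in replicate 2 alone (5.91). The other member of each of these paralog pairs, Slc25a18 for glutamate and Slc25a2 for ornithine, had no listed promoter region. Slc25a45 was listed in replicate 1 alone, with 5.85 at percentile 21.9, and Slc25a48 in neither replicate.

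The remaining carriers included some of the strongest promoters. Of 3 relatives of the uncoupling proteins, Slc25a30 had 16.3 and 17.2 (percentiles 96.2 and 95.1; chr14:75786868-75787355) and a second, weaker region (9.16 and 8.1), Slc25a14 had 11.1 and 13.3, and Slc25a27 had none. All 3 genes for iron and glutathione had a promoter region in both replicates. Slc25a28, mitoferrin 2, which imports iron, had 12.8 and 16.3 (percentiles 84.6 and 92.8; chr19:43674791-43675590). The glutathione carriers Slc25a39 and Slc25a40 had 11.5 and 13.1 and, for Slc25a40, 9.5 and 11.4 in a region shared with the opposite gene Dbf4. Of the 5 genes at the outer membrane or with no assigned substrate, Slc25a53 had 13.1 and 14.4, Slc25a46 had 13.3 and 12.6, and Slc25a35 had 9.55 and 11.3. Slc25a34, the paralog of Slc25a35, and Slc25a43 had none.

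The 10 genes absent from both lists differed in how far they lay from a region listed in both replicates. The nearest region in both replicates was 5.18 kb from a start site of Slc25a2, 9.26 kb from Slc25a41 and 14 kb from Slc25a31. It was 44.5 kb from Slc25a34, 48.9 kb from Slc25a18 and 51.7 kb from Slc25a43, where it was the promoter region of Slc25a5. It was 168 kb from Slc25a54, 211 kb from Slc25a24, 265 kb from Slc25a48 and 1109 kb from Slc25a27. Weaker regions lay nearer to most of these genes. In the lenient list of both replicates together the nearest was 1.23 kb from Slc25a43, 1.64 kb from Slc25a34 and 3.61 kb from Slc25a54. There it was 4.42 kb from Slc25a2, 5.86 kb from Slc25a41, 21.8 kb from Slc25a18 and 37.2 kb from Slc25a48. For Slc25a24 it was 46.3 kb, for Slc25a27 573 kb, and for Slc25a31 still 14 kb. None of the 10 had a promoter region in the authors' lenient lists of both replicates, where 33 SLC25 genes (73.3%) were found, against 43.3% of all genes. For Slc25a2 the lenient list of replicate 2 alone held one (4.97). In the lenient list of both replicates together, all 4 genes called in 1 replicate were listed, with signals of 6.41 for Slc25a10, 6.1 for Slc25a11, 6.82 for Slc25a16 and 6.87 for Slc25a45, and none of the 10 was.

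The absent genes were on the whole poorer in CpG dinucleotides. In 1 kb around the outermost 5′ end, the ratio of observed to expected CpG had a median of 0.472 in the 10 genes with no region and 0.765 in the 31 genes with one in both. Over all genes with no region the median was 0.28, and over all with one in both it was 0.741. Over all 45 SLC25 genes it was 0.675, against 0.553 over all protein-coding genes, and no share given here was matched for CpG. The lowest ratios were 0.208 at Slc25a18, 0.216 at Slc25a34 and 0.238 at Slc25a41. Slc25a31 (0.754) and Slc25a27 (0.708) had no listed region at ratios close to the median of the accessible genes. Of the 31 accessible genes, 6 (19.4%) had a start site of a protein-coding gene on the other strand within 1 kb of their shared region. The share was 24.5% among all 8507 genes with a shared promoter region. The 6 were Slc25a25, Slc25a29, Slc25a32, Slc25a40, Slc25a46 and Slc25a47.

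**Figure D2:**
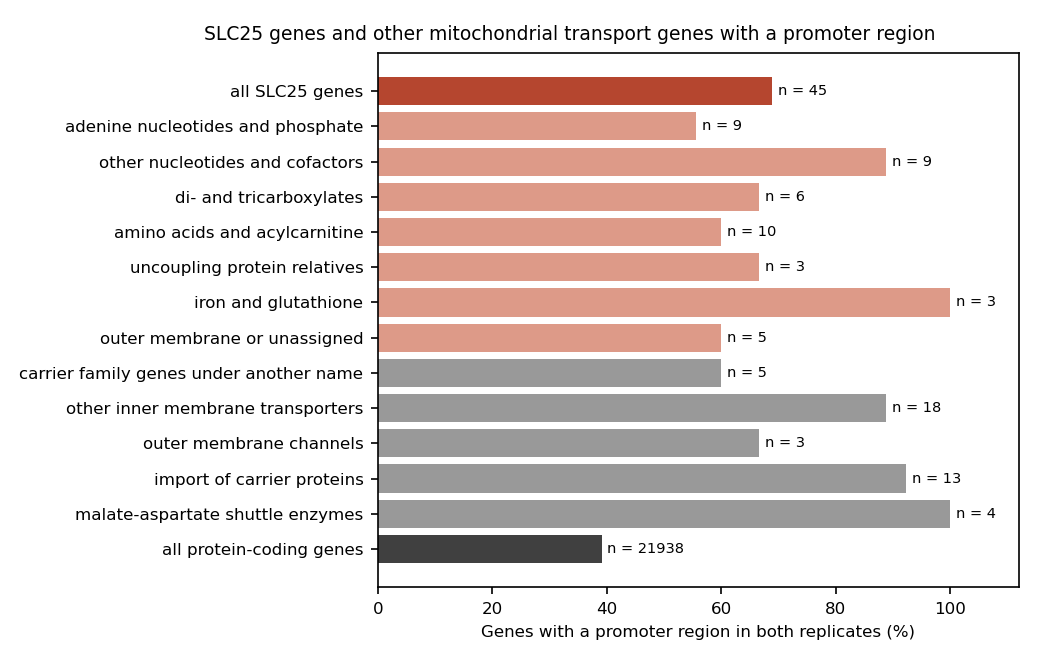
Share of genes with a promoter region in both replicates, in percent, for all SLC25 genes, their substrate groups (light red), other lists of mitochondrial transport genes (grey) and all protein-coding genes; n is the number of genes in each list. SLC25 genes reached 68.9%, against 39.1% of all genes.

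Shares among other genes of mitochondrial transport ran between 60% and 100%. In both replicates one was listed for 12 of 13 genes (92.3%) for the import of carrier proteins, all but Timm8a1, and for 16 of 18 other inner membrane transporters (88.9%), all but Sfxn5 and Mcub. Of 5 carrier family genes under other names, Ucp2, Mtch1 and Mtch2 had one in both replicates, and Ucp1 and Ucp3 had none in either. Among the outer membrane channels, Vdac1 and Vdac2 had one in both replicates and Vdac3 in replicate 1 alone. No difference between these lists and the SLC25 genes was tested.

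Distal regions, which lie over 1 kb from every annotated start site, coding or not, were found within 50 kb of the outermost 5′ end of 24 of 45 SLC25 genes (53.3%) in both replicates, against 32.2% of all protein-coding genes. The 5 genes with 3 or more (11.1%, against 5.5% of all genes) were Slc25a23 with 4, and Slc25a21, Slc25a29, Slc25a30 and Slc25a47 with 3. A distal region lay near 20 of the 31 genes with a promoter region in both (64.5%), against 47.2% of all such genes, and near 4 of the other 14 (28.6%), against 22.5% of all genes without one in both. In all, 35 distinct distal regions were counted, 22 in introns, 9 between genes and 4 in exons. A member was the nearest protein-coding gene by 5′ end for 14 of them, and 10 lay inside a member gene, so most had another gene closer by and no region was tied to a target by these data.

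**Figure D3:**
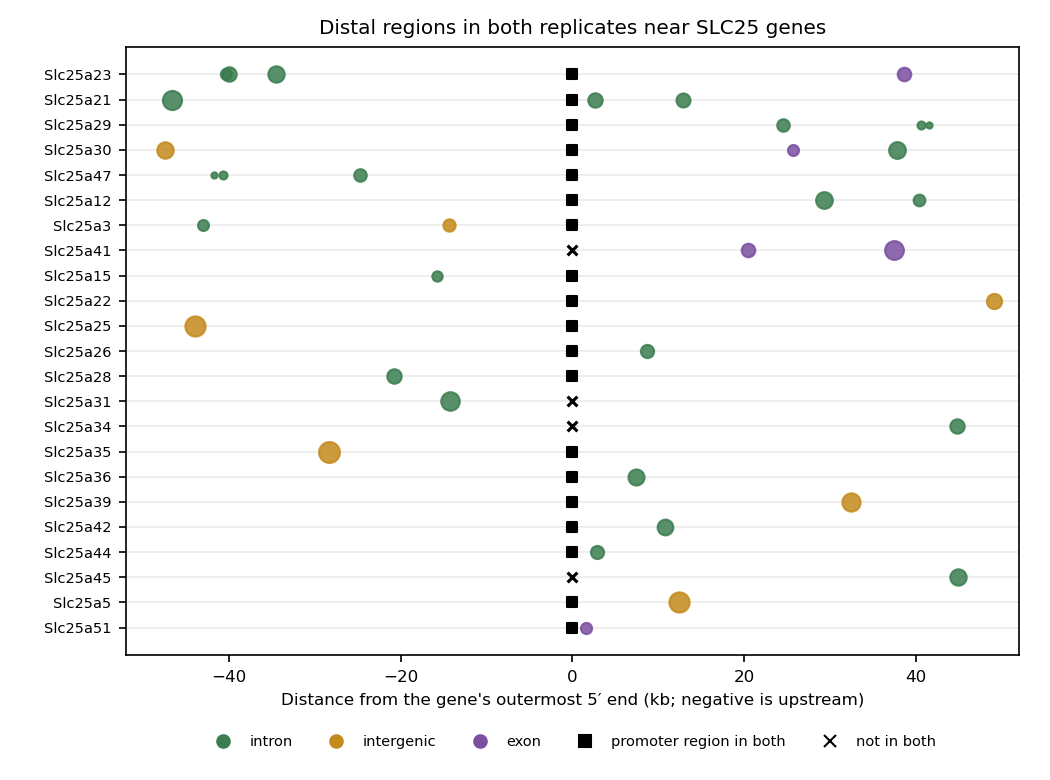
Position of each distal region found in both replicates around the outermost 5′ end of SLC25 genes that have one, in kb, with upstream to the left; dot size grows with the mean percentile of signal, dot colour gives the annotation, and squares or crosses at 0 mark genes with or without a promoter region in both replicates. Slc25a23 has 4 regions, and the 3 regions of Slc25a29 and Slc25a47 are the same ones.

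The strongest distal region near an SLC25 gene lay -28.4 kb from Slc25a35 (chr11:68939487-68940019), with signals of 14.6 and 16.3 and a mean percentile of 92.5, and Odf4 was the nearest gene. Next came regions -44 kb from Slc25a25 (12.8 and 14.6) and 12.4 kb from Slc25a5 (14.6 and 13), both between genes. Slc25a21 had 1 region at -46.6 kb, in an intron of Mipol1 (12.5 and 11.3) and 2 in its own introns, at 2.65 kb (6.8 and 8.51) and 12.9 kb (6.64 and 8.11), so its upstream region was the strongest of its 3 in both replicates. Slc25a30 had one at 37.8 kb in an intron of Cog3 (7.62 and 11.3) and one at -47.5 kb between genes (8.34 and 9.65), with the first stronger in replicate 2 and the second in replicate 1. The 3 regions of Slc25a29 and Slc25a47 all lay in introns of Yy1 and were weak, with mean percentiles between 1.03 and 28.5. Slc25a23 had 3 regions between -40.3 and -34.5 kb, in introns of Gm11110, and 1 in an exon of Khsrp. That exonic region was also counted for Slc25a41, whose stronger one lay 37.5 kb away in an exon of Gtf2f1 (10.6 and 12.4). Among regions inside a member, Slc25a42 had one in its intron at 10.8 kb (chr8:70201225-70201798; 7.41 and 9.63). Slc25a39 had one 32.5 kb away, nearest to Slc4a1, the gene of the band 3 anion exchanger of red cells (8.3 and 14.3).

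Sequence around 5 distal summits is shown because GATA matches were in 68.9% of all distal regions, and because the strongest region near an SLC25 gene had none. These 5 are richer in GATA matches than the 35 distal regions near SLC25 genes, of which 16 (45.7%) held one. Each printed sequence is 200 bases of the plus strand of the GRCm38.p6 (mm10) genome of RefSeq. Capitals mark GATA matches on either strand (the letters AGATAA or the letters AGATAG, and likewise the letters TGATAA or the letters TGATAG) in these regions: Slc25a42 at chr8:70201551-70201750, Slc25a21 at chr12:57244141-57244340 and at chr12:57184508-57184707, and Slc25a30 at chr14:75749217-75749416. In the last sequence, near Slc25a35 at chr11:68939744-68939943, capitals mark NFY matches (CCAAT). The regions of Slc25a42 and Slc25a35 were chosen after their values were seen.
Slc25a42, intron, 10.8 kb: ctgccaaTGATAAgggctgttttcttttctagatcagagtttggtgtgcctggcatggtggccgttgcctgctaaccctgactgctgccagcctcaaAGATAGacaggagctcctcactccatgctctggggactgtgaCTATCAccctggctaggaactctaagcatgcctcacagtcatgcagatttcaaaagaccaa
Slc25a21, upstream: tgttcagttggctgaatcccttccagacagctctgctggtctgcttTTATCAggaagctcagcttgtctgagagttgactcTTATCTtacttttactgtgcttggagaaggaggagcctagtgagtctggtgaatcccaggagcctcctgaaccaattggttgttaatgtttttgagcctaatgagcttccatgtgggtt
Slc25a21, intron, 12.9 kb: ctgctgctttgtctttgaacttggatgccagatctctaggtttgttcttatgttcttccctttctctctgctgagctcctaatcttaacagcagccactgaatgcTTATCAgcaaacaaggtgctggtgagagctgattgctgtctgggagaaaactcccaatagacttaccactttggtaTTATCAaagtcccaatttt
Slc25a30, 37.8 kb: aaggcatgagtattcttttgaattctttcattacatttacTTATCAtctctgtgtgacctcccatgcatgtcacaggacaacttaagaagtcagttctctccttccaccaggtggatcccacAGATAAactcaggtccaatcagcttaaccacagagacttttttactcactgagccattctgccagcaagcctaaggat
Slc25a35, upstream: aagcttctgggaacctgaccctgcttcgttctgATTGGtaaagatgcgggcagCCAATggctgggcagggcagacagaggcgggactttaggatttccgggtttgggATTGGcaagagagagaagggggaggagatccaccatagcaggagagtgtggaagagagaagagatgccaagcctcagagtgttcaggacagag

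In the 200 bases around the summit, a GATA match was present in 16 of the 35 distal regions near SLC25 genes (45.7%), against 68.9% of all 8227 distal regions, and in 7 of the 35 SLC25 promoter regions (20%), against 16.4% of all promoter regions. The promoter count depended on the window, at 4 with 100 bases and 11 with 300. The lower distal share was seen in all 4 settings run: with 100 bases it was 40%, against 51.1%, with 300 bases 62.9%, against 75.1%, and with the summits of replicate 1 54.3%, against 68.8%. The 35 lie within 50 kb of a gene's 5′ end, whereas the 8227 were taken at any distance from a gene. The difference was not tested. The Slc25a42 region held 3 GATA matches, and both printed Slc25a21 regions and the Slc25a30 region held 2 each. AP-1 (TGANTCA) was matched in 6 distal regions near SLC25 genes (17.1%), against 13.9%, RUNX (TGTGGT) in 10 (28.6%), against 24.1%, and NFY in 11 (31.4%), against 22%. The Slc25a35 region held 3 NFY matches. PU.1 (GAGGAAGT) was matched in none of the 35, against 6.02% of all distal regions.

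At the promoters, SP1 was matched in 26 of 35 SLC25 regions (74.3%), against 58.7% of all, KLF (CCNCNCCC) in 21 (60%), against 59.9%, and NFY in 16 (45.7%), against 39.5%. SP1 and KLF matches can overlap each other, and KLF was matched in 12 with a window of 100 bases. ETS was matched in 9 (25.7%), against 18.9%. With a window of 100 bases the shares of SP1 and ETS fell below those of all promoter regions, 40% against 40.3% and 11.4% against 12.3%, so their direction depends on the window. The E-box of MYC (CACGTG) was matched in 6 (17.1%), against 8.36%, and RUNX in 6 (17.1%), against 9.01%. Both stayed above the share of all promoters in every window tried. YY1 (AAGATGG) was matched in 1 region (2.86%), against 5.53%. NRF1 (GCGCATGCG), the ERR motif (TCAAGGTCA), ZNF143 (CTACAATTC), E2F (TTTCCCGC), PU.1 and AP-1 were matched in 0 of the 35, against 2.64%, 0.117%, 0.843%, 1.44%, 2.74% and 3.72% of all promoters. AP-1 was matched in 2 with 300 bases and in 1 with the summits of replicate 1. With 35 regions, shares this low leave room for 0 or 1 match, and a missing match says only that these letters are not in the window.

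**Figure D4:**
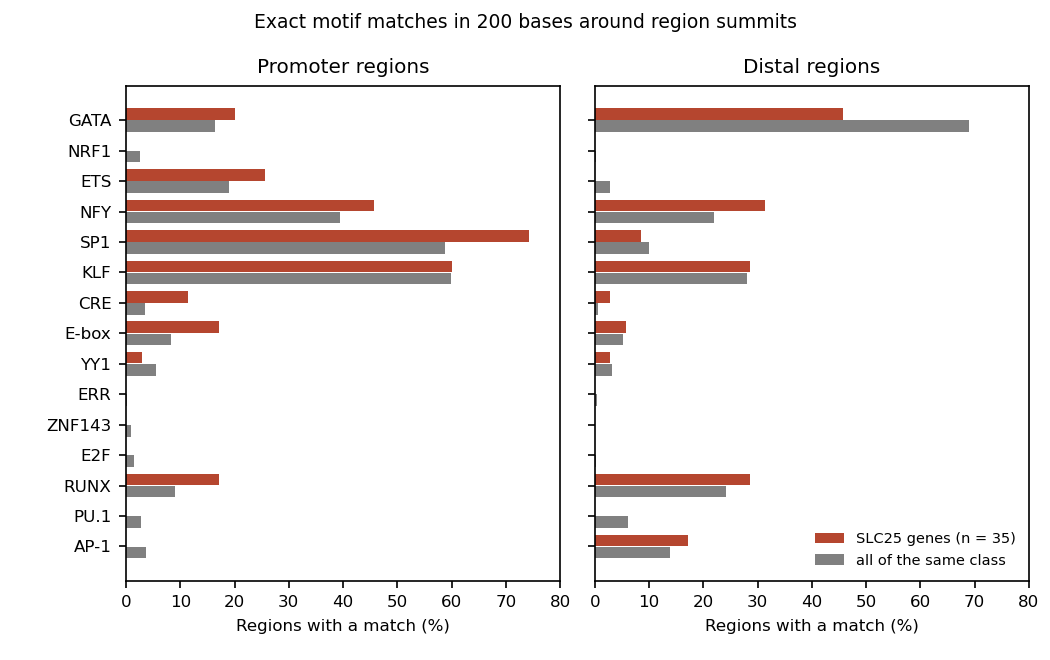
Share of regions, in percent, with an exact match to each of 15 motifs in 200 bases around the summit, for the 35 promoter and 35 distal regions of SLC25 genes (red) and for all 8538 promoter and 8227 distal regions shared by the replicates (grey). GATA matches were in 45.7% of the distal regions within 50 kb of SLC25 genes, against 68.9% of all distal regions, taken at any distance from a gene.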

How the data were processed

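The deposited files are peak lists of 2 ATAC-seq replicates of G1E cells, mapped to mm10 per the labels. Per the submitters' notes on the files, they derive from alignments. Which aligner and peak caller made them is not given in the sources used here. Each peak carries a signal value and a −log10 p value as deposited by the authors; the −log10 p values were not used in any result, and signal was used only to rank or describe regions within a list. Results rest on the authors' lists for each replicate after thresholding by irreproducible discovery rate, with 26083 and 27810 peaks. Overlapping or touching peaks were merged, and a region takes its summit and signal from the strongest peak in it. A region is in both replicates where at least 1 bp overlaps, which gave 17425. Its summit is that of replicate 2 unless stated.

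Start sites came from GENCODE M21. A promoter region lies within 1000 bp of any start site of a protein-coding gene, and distal regions were counted by their middle within 50 kb of the outermost 5′ end. All 15 motifs were matched exactly on both strands in 200 bp around the summit. Sequences came from the RefSeq GRCm38.p6 genome; for all 45 genes its promoter table was identical to the genome at the stated coordinates. Values were computed with Python 3.11.15, pandas 2.3.3, numpy 2.4.6 and pysam 0.24.0, and the interval code was tested on simulated data.

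The members and lists were chosen with earlier results of these data known, and no test was run. Named genes were the 10 with the highest and the 5 with the lowest mean percentile, those whose call differed between replicates or lists, and the 6 with the most distal regions; the counts cover all members, and 1 gene under this rule is not reported here by name or drawn in the figures. Other members are named to account for every gene, and those with values outside this rule were chosen after their values were seen. The alternatives were the lenient lists, the lists of both replicates together, unmerged summits, the stronger 50% of regions, other windows, start sites and overlaps, and each replicate alone. Some of these were chosen after seeing the data. They were the lists of both replicates together, the same promoter region by 1 bp of overlap, and other windows and summits for distal GATA matches.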

Additional observations from a re-analysis of the deposited data

How the results depend on the processing

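The count of SLC25 genes with a promoter region in both replicates, 31, stayed between 24 and 35 under the 12 alternatives run. It was 24 of 45 with the stronger 50% of regions, against 27.2% of all genes. In the lenient list of both replicates together it was 35 of 45, against 47.1%. Leaving out 1 replicate gave 32 and 34. Across all settings 23 genes were always counted, and the 10 absent genes never were.

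The count of genes with a distal region, 24, depended on its definition. It was 9 of 45 genes with the stronger 50% of regions, a share close to the 16.8% of all genes. Within 25 kb it was 15 of 45, against 19.8%, and 11 of 45 where the gene had to be the nearest one, against 16.8%. Under each of these the median number per SLC25 gene was 0 in place of 1, and it was 1 without either replicate. Leaving out 1 replicate gave 26 and 32 genes. The median percentile of promoter signal, 79.7, was 87.5 in the lenient lists, which hold more weak regions, and between 76.6 and 79.9 when 1 replicate was left out. No paired analysis was possible because the series has 1 group and no comparison between groups. Of the genes called in 1 replicate, Slc25a11 (4.53 in replicate 1) and Slc25a45 (4.99 in replicate 2) had a region in the other replicate's lenient list. Slc25a10 and Slc25a16 had none in the lenient list of replicate 1. Depth is unknown, so it cannot be told whether their regions were absent there or too weak to be listed.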
